A study of Homo sapiens with 4 samples.

Results

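The genes of 8 myeloid granule proteins, MPO, ELANE, PRTN3, AZU1, CTSG, LYZ, CFD and LTF, and PLPPR3, the neighbour of the AZU1, PRTN3 and ELANE cluster on chromosome 19, form a list of 9 out of 20033 protein-coding genes. The 9 were chosen by name, with earlier results of these data known. Shares over all genes are therefore set beside theirs as values and not as a test. All 9 had at least 1 H3K27Ac peak in control cells over the gene with 5 kb on both sides, as did 15631 genes in all. PLPPR3 encodes a membrane protein related to lipid phosphatases and not a granule protein, and it was included for its position.

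H3K27Ac, the acetyl mark of active promoters and enhancers, was profiled with ChIPmentation, a form of ChIP-seq in which Tn5 transposase tags the chromatin while it is bound to the antibody beads. The cells were MOLM13, a human AML cell line with rearranged MLL1 (MLL1-r), so that the data describe 1 cell line. The series has 4 samples, and the 2 that were compared are 1 H3K27Ac library of control cells and 1 of cells treated with 500 nM of the Menin inhibitor SNDX-50469 for 16 h. The labels list no treatment for the control, while the treatment protocol speaks of a DMSO arm. The inputs, 2 libraries, were not used here. Since both arms consist of a single library, differences between them have no replicate check and are given as values without a p.

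Granule proteins are made in waves while neutrophils and monocytes mature. Myeloperoxidase and the serine proteases of the azurophil granule are made at the promyelocyte stage, lactoferrin and other proteins of the specific granule later, and lysozyme in several stages and also in monocytes. The transcription factors C/EBP, PU.1, MYB and RUNX1 are known to act at promoters and enhancers of the early group. Menin is a chromatin adaptor that holds MLL1 and its fusion proteins at their target genes.

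For each gene the covered length is the number of bases under any peak of a list, over the gene with 5 kb on both sides unless another window is named. The kept share is the part of the control covered length that was also covered after SNDX-50469 treatment. The rank of a peak is its place by −log10 p within its own list, where 1 is the strongest. The lists differ in number of peaks, so a lower rank number after treatment does not mean a stronger peak. The fold of a peak is the authors' enrichment over the background of its own library and was not compared between the lists. The control list held 245875 peaks on 224 Mb and the SNDX-50469 list 54061 peaks on 29.4 Mb, with a smallest −log10 p of 2.68 and 3.93, and 9.71% of the control covered length was kept. The files give no read totals, so the depth of the libraries is unknown and its part in the results was not tested. With the limit of the SNDX-50469 list applied to both lists, 15.5% of the control covered length was kept.

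All 6 markers of myeloid and monocytic cells (CD33, CD14, ITGAM, CSF1R, CD68 and CD86) had a control peak, over 5032 to 60971 bp. HBB, ALB and KRT5, which mark erythroid cells, liver and keratinocytes, had none in either list. MS4A1, CD3E and CD3D, which mark B and T cells, had 7681 to 9490 bp in control, of which MS4A1 alone had any SNDX-50469 peak, over 254 bp.

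The members fell into a graded order by kept share. It was 94.5% at PRTN3, 87.3% at AZU1, 70.9% at ELANE, 63.4% at MPO, 61.2% at PLPPR3, 41.0% at CTSG, 22.9% at CFD, 4.49% at LYZ and 0% at LTF. The median of the 9 was 61.2%, the value of PLPPR3, which is not a granule protein gene. The median was 2.36% (quartiles 0 and 15.3) over all 15631 genes with a control peak and 6.38% over those of chromosome 19. With the common limit on −log10 p the median of the 9 genes was 70.9%. No median over all genes was computed with that limit, which raised the kept share of the whole control list from 9.71% to 15.5%. The windows of the 5 cluster genes overlap, so their values share peaks and are not independent.

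At 4 of the 9 genes (CTSG, CFD, LYZ and LTF) the covered length was at least 2-fold lower after treatment, where the share over all genes was 93.7%, or 94.8% without chromosome 8, which holds none of the 9 genes. It was at least 4-fold lower at 3 of 9, where the share over all genes was 79.7%. A kept share of at least 50% was found at 5 of 9, against 2.78% of all genes. Genes with at least 10 kb covered in control, which is the range of 6 members, gave 96.1% for a 2-fold lower length and 2.63% for a kept share of at least 50%. A gene without any SNDX-50469 peak was 1 of 9 here (LTF), against 35.6% of all genes.

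**Figure D1:**
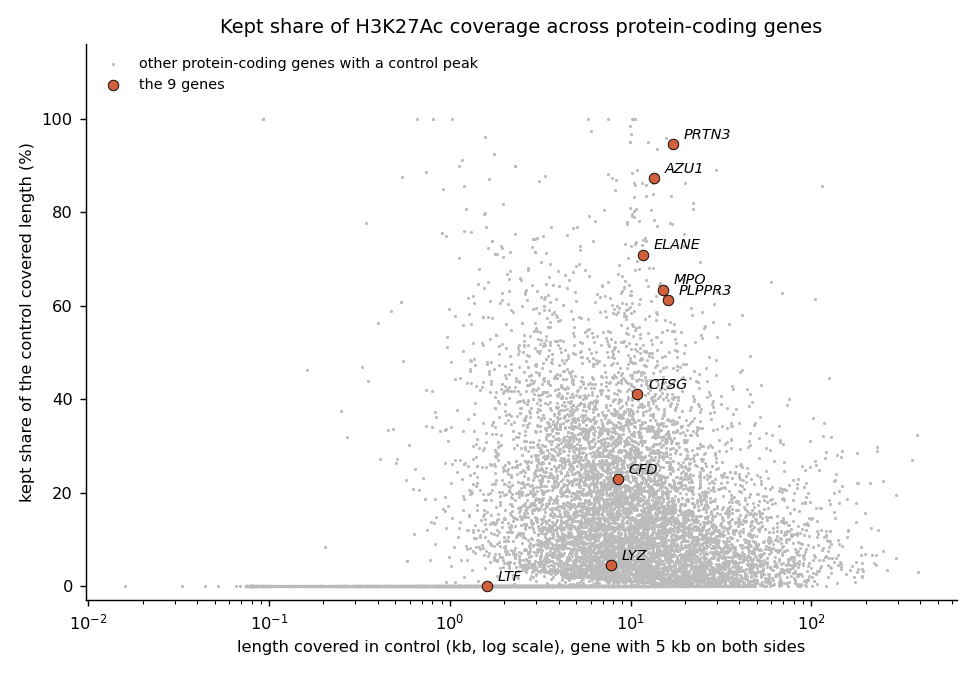
Kept share in percent of the control covered length (vertical axis) against the control covered length in kb on a log scale (horizontal axis) for all protein-coding genes with a control peak, over the gene with 5 kb on both sides. Each point is 1 gene and the 9 genes are marked, from PRTN3 at 94.5% to LTF at 0%, while the median of all genes is 2.36%.

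Promoter sequences from RefSeq (GRCh38.p14) were at hand for 6 of the 9 genes. Those of CFD and PLPPR3, with no match to the motifs below, are left out. The 4 printed are from PRTN3, AZU1 and LTF, at the ends of the order above, and from CTSG, between them. Each runs 5′ to 3′ over the 250 bases before an annotated start, on the strand of the gene. Capitals mark matches, on either strand, to TTNNGNAA for C/EBP, GAGGAA for PU.1 and TAACNG or CAACNG for MYB, and TGTGGT or TGCGGT for RUNX had no match in them. PRTN3 is shown at chr19:840749-840998 (plus strand), AZU1 at chr19:827587-827836 (plus strand), CTSG at chr14:24576251-24576500 (minus strand) and LTF at chr3:46464906-46465155 (minus strand), before 1 of its 3 annotated starts.
PRTN3: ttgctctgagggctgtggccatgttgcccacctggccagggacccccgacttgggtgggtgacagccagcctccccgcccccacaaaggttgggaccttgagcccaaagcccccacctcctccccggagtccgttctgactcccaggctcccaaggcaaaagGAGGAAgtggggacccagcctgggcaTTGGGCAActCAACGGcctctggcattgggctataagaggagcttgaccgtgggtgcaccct
AZU1: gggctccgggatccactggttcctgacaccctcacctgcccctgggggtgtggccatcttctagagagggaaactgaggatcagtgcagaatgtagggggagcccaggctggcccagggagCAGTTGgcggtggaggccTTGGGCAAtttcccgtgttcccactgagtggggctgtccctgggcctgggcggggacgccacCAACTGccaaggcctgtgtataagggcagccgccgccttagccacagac
CTSG: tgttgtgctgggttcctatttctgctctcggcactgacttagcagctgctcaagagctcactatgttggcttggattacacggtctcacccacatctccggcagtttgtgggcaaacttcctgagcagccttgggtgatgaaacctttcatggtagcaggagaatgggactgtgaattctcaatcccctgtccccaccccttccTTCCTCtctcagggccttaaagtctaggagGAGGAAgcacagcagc
LTF: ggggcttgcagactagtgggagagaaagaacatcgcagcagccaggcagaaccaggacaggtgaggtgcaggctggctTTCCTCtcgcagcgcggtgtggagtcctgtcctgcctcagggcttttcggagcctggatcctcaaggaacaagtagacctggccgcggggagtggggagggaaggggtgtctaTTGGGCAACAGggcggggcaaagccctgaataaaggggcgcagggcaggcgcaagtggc

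All 250 bases lay under a peak in both lists at PRTN3, AZU1 and CTSG, and 0 of 250 in either list at LTF. The run TTGGGCAA, a match to the C/EBP letters, stands at PRTN3 62 bases, at AZU1 111 bases and at LTF 59 bases before the start, counted to its first base. The other annotated starts of LTF, 46463654 and 46485234, do not have it in their windows, and the outermost of them is the 5′ end from which distances at LTF are given. The window at 46485234 has other matches to the C/EBP and PU.1 letters, and that at 46463654 has matches to the PU.1, MYB and RUNX letters. The run TTGGGCAA was singled out after the sequences had been seen, and it or its reverse complement was in 0.769% of 35116 promoter windows of 250 bases. In the LTF window it overlaps the MYB match by its letters CAA. The CTSG window holds 2 matches to the PU.1 letters, 46 and 16 bases before the start, and none to the C/EBP letters. Such matches are common, since the C/EBP letters were found in 33.2%, the PU.1 letters in 23.6%, the MYB letters in 39.3% and the RUNX letters in 16.3% of all promoter windows. The CFD and PLPPR3 windows, also covered over all 250 bases in both lists, held none of the 4 motifs and had a GC content of 70.8% and 81.6%, beside a median of 58.0% over all windows.

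The cluster on chromosome 19 carries PLPPR3, AZU1, PRTN3, ELANE and CFD in this order. From PLPPR3 to CFD with 5 kb on both sides (chr19:807488-868641), the control list had 19 peaks with a covered length of 49639 bp and the SNDX-50469 list 12 peaks with 33694 bp. All of the bases covered after treatment had been covered in control, so the kept share was 67.9% and nothing was gained. The loss was uneven along the cluster. Between the AZU1 start and the ELANE end, the covered length was 27174 bp in control against 22772 bp in treated cells, a kept share of 83.8%.

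On both sides of the cluster less was kept. In the 100 kb before PLPPR3, on the side of PTBP1, MISP and PALM, the covered length was 33110 bp in control against 6333 bp in treated cells, with a kept share of 18.1%. In the 100 kb after CFD, on the side of MED16, R3HDM4, KISS1R and ARID3A, these values were 57199 bp, 20886 bp and 35.9%. The cluster thus stood above its flanks within the same pair of libraries, a comparison of values without a test.

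**Figure D2:**
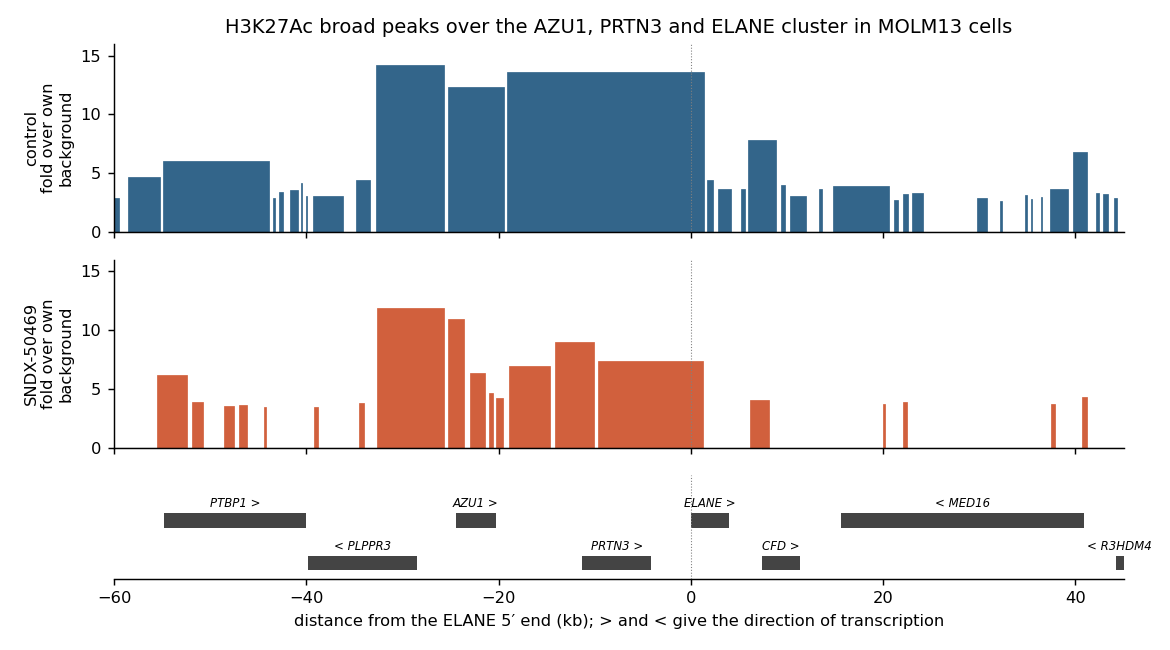
H3K27Ac peaks over the chromosome 19 cluster in control (upper panel) and SNDX-50469-treated cells (middle panel), with distance from the ELANE 5′ end in kb on the horizontal axis and the authors' fold over the background of each library as height. Bars of the lower panel are genes, and in both lists the wide domain upstream of ELANE stops just after the ELANE 5′ end, with 19 control and 12 SNDX-50469 peaks from PLPPR3 to CFD with 5 kb on both sides.

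AZU1 (chr19:827837-832018, plus strand) encodes azurocidin, an antimicrobial relative of the serine proteases without protease activity. Its covered length was 13404 bp in control and 11697 bp in treated cells. The control peak over its 5′ end was 5793 bp wide (chr19:827014-832806, fold 12.3, rank 61), and 74.5% of it was covered after treatment. Both lists placed the edge of the peak at the same base before the gene. In the SNDX-50469 list the single peak was broken into 4, of which the one over the 5′ end (1663 bp, fold 11.0) ranked 17 and the others 526, 2869 and 6294.

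PRTN3 (chr19:840999-848175, plus strand) encodes proteinase 3, a serine protease of the azurophil granule and the target of the autoantibodies in granulomatosis with polyangiitis. Its whole window of 17177 bp lay in 1 control peak of 20460 bp (chr19:833189-853648, fold 13.6, rank 26) that runs from downstream of AZU1 to inside ELANE. After treatment 16231 bp were covered, by 3 peaks that follow each other within the limits of the control peak. The middle one, 4012 bp over the PRTN3 5′ end (fold 8.99), ranked 50, and the outer ones ranked 294 and 190. Of the control peak, 94.2% was covered after treatment, and the gaps between the 3 peaks make up most of what was lost.

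ELANE (chr19:852303-856243, plus strand) encodes neutrophil elastase, the protease mutated in cyclic and severe congenital neutropenia. Its covered length was 11638 bp in control, in 5 peaks, and 8248 bp after treatment, in 2 peaks. The wide domain that starts upstream of PRTN3 ended 1.34 kb after the ELANE 5′ end in control and 1.30 kb after it in treated cells. Beyond that point the lists parted. Over the gene body the covered length was 3090 bp against 1305 bp, a kept share of 42.2%, because the control peaks at chr19:853997-854639 and chr19:855143-856468 (ranks 13567 and 27986) had no counterpart.

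CFD (chr19:859664-863641, plus strand) encodes complement factor D, a serine protease that cleaves factor B in the alternative pathway of complement. It lies next to ELANE, yet its covered length was 8492 bp in control against 1943 bp in treated cells, a 4.37-fold lower length. The control peak over its 5′ end (chr19:858264-861114, 2851 bp, fold 7.80) ranked 1315 and the one of the SNDX-50469 list (1943 bp, fold 4.08) ranked 9064. The other 6 control peaks in the window had no position shared with a SNDX-50469 peak inside it, so that what remained at CFD was the peak at its 5′ end.

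PLPPR3 (chr19:812488-823797, minus strand) had a covered length of 16035 bp in control against 9819 bp in treated cells. The control peak over its 5′ end (chr19:819560-826617, 7058 bp, fold 14.2) ranked 19, the strongest control peak at any of the 9 genes, and 98.1% of it was covered after treatment. The SNDX-50469 peak at the same place (6926 bp, fold 11.9) ranked 10. This peak reaches from inside PLPPR3 to 1.22 kb before the AZU1 5′ end, so it lies in the windows of both genes and cannot be given to either from position alone. Within 5 kb of the PLPPR3 5′ end 96.2% was kept, and the loss lay in the distal part of the gene and in the flank over PTBP1, which itself kept 33.0%.

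MPO (chr17:58269855-58280935, minus strand) encodes myeloperoxidase, the heme enzyme that makes hypochlorous acid and defines the myeloid lineage in leukemia diagnosis. Its covered length was 15118 bp in control and 9591 bp after treatment. A control peak of 21674 bp (chr17:58275146-58296819, fold 9.89, rank 279) lay over the 5′ end and extended 15.9 kb upstream, and 74.8% of it was covered after treatment. The SNDX-50469 peak over the 5′ end (chr17:58277309-58289125, 11817 bp, fold 8.14) ranked 96. Most of what was lost from the domain lay in gaps between the SNDX-50469 peaks inside it. Within 5 kb of the 5′ end 89.5% was kept, whereas over the gene body, of which the control domain covers the first 5.79 kb, the value was 50.4%.

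The sides of MPO differed in size of loss. On the upstream side, from 5 to 100 kb, the covered length was 71043 bp in control against 35597 bp in treated cells, and the kept share was 50.1%. On the downstream side, toward LPO and EPX, which encode the peroxidases of secretions and of eosinophils, it was 32789 bp against 1176 bp, and the kept share was 1.99%. LPO went from 19262 to 672 bp and EPX from 776 to 248 bp, with no EPX base kept.

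The strongest peak on the upstream side lay over MIR142, the gene of a microRNA of blood cells, whose hairpin is 50.3 kb before the MPO 5′ end (chr17:58331232-58331318). Its control peak (chr17:58330267-58349960, 19694 bp, fold 12.6) ranked 52 and 73.0% of it was covered after treatment. The SNDX-50469 peak there (10451 bp, fold 10.2) ranked 23. TSPOAP1, between MIR142 and MPO, went from 36167 to 15514 bp, so the stretch from MPO to MIR142 held fragments of coverage throughout.

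CTSG (chr14:24573518-24576250, minus strand) encodes cathepsin G, an azurophil protease that lies among granzyme genes. Its covered length was 10879 bp in control and 4464 bp after treatment, a 2.44-fold lower length. The control peak over its 5′ end (chr14:24571066-24577826, 6761 bp, fold 5.11) ranked 8149, far below those of the chromosome 19 cluster, and 66.0% of it was covered after treatment. In the SNDX-50469 list the peak over the 5′ end (2824 bp, fold 4.70) ranked 2602. Over the gene body 84.3% was kept, and the loss lay upstream and downstream of the gene.

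The neighbours of CTSG kept little. GZMH, which encodes granzyme H of cytotoxic lymphocytes, went from 10400 to 277 bp and GZMB, encoding granzyme B, from 5378 bp to none. The mast cell chymase gene CMA1 had no peak in either list. A domain without a protein-coding gene, 77.8 to 90.1 kb upstream of CTSG (chr14:24654085-24666364, rank 1283), was the strongest control peak in the window of 100 kb on both sides, and 54.5% of it was covered after treatment. With 100 kb on both sides the kept share of CTSG was 20.6%, of 60473 bp in control.

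LYZ (chr12:69348381-69354234, plus strand) encodes lysozyme, which cleaves the peptidoglycan of bacterial walls. In control 8 peaks covered 7766 bp, and after treatment 2 peaks covered 587 bp, a 13.2-fold lower length. The control peak over the 5′ end (chr12:69347812-69348982, 1171 bp, fold 4.69, rank 10918) had no counterpart, and the nearest SNDX-50469 peak was 4652 bp away. None of the 2081 bp covered in the gene body was kept. The only coverage in the gene after treatment was a peak of 238 bp at its 3′ end (chr12:69354000-69354237, rank 36059) that the control list lacked.

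Upstream of LYZ a control domain of 13492 bp (chr12:69332929-69346420, fold 5.55, rank 6073) ended 1.96 kb before the 5′ end, and 28.2% of it was covered after treatment, in fragments. The strongest SNDX-50469 peak near the gene (chr12:69359733-69360530, fold 5.40, rank 1149) lay at the start of the next gene, YEATS4, a subunit of histone acetyltransferase complexes, just outside the 5 kb window. Thus at the end of LYZ the neighbour held a peak while the lysozyme gene itself had lost those of its 5′ end. The paper reports LYZ mRNA as upregulated by SNDX-50469 in MOLM13 cells, so the lost peaks are not to be read as lower mRNA.

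LTF (chr3:46435645-46485234, minus strand) encodes lactoferrin, the iron-binding protein of the specific granule. It had 8 control peaks covering 1600 bp, the best of them at rank 32126, and no SNDX-50469 peak. No peak of either list lay within 1 kb of the 5′ end, the nearest being 4896 bp away in control and 62025 bp away after treatment. LTF thus had little coverage before treatment, and its kept share of 0% rests on 1600 bp of weak peaks.

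Within 100 kb of LTF, the covered length was 69884 bp in control against 7986 bp in treated cells, almost all of it downstream at genes of chemokine receptors. CCR2 went from 16830 to 5154 bp and CCRL2 from 9512 bp to none. RTP3, LRRC2 and CRIPTO, upstream of LTF, had no peak in either list.

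**Figure D3:**
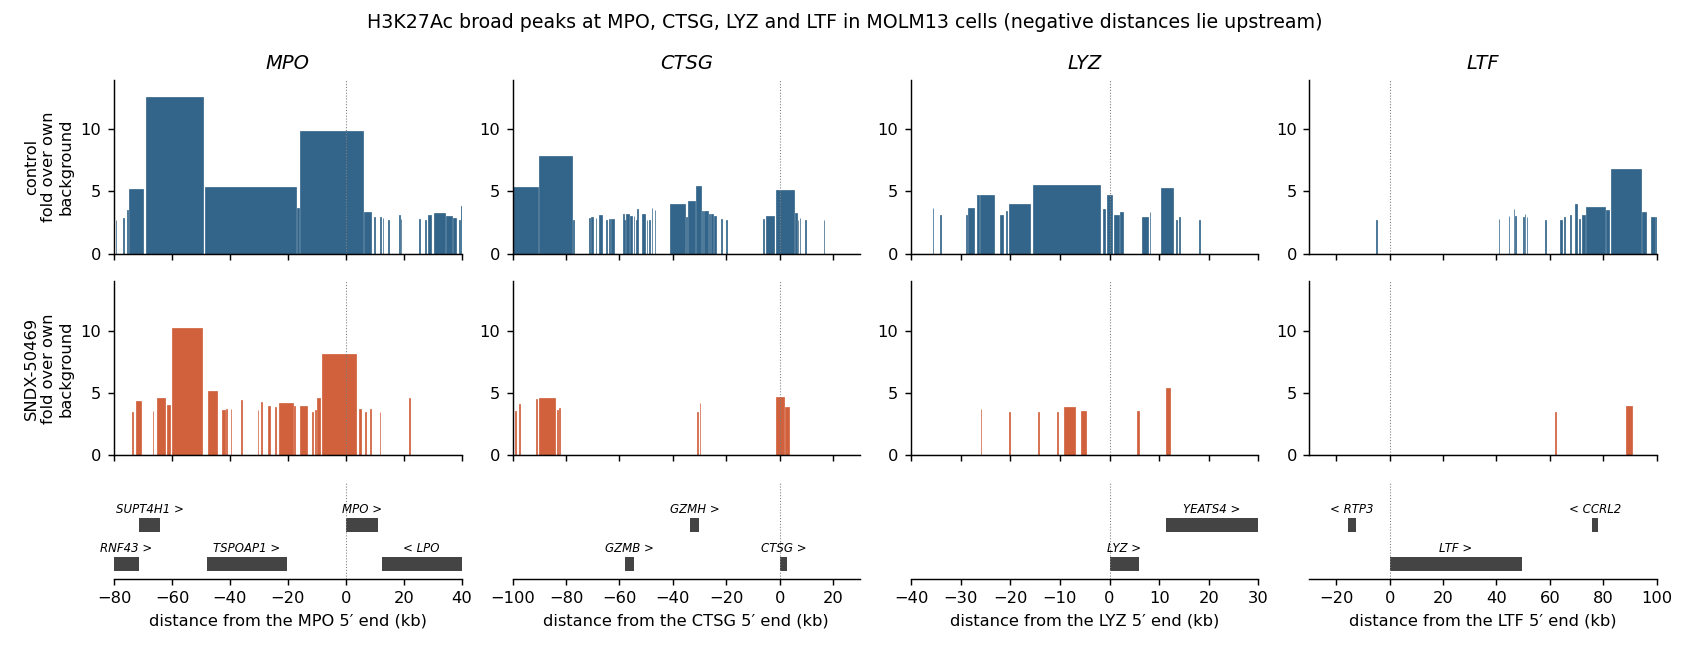
H3K27Ac peaks at MPO, CTSG, LYZ and LTF in control (upper row) and SNDX-50469-treated cells (middle row), with distance from the 5′ end of each gene in kb on the horizontal axis, negative upstream, and the authors' fold over the background of each library as height. Bars of the lower row are genes. A SNDX-50469 peak stands over the 5′ end of MPO and CTSG, while the nearest one is 4652 bp away at LYZ and 62025 bp away at LTF.

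At the 5′ ends, a control peak lay within 1 kb at 8 of 9 genes, LTF being the exception, against 59.9% of 19671 genes with a known strand. A SNDX-50469 peak lay there at 7 of these 8, LYZ being the exception, against 49.7% of the 11780 genes with a control peak at the 5′ end. The 7 were the 5 cluster genes, MPO and CTSG.

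With 100 kb on both sides, all 9 genes had a covered length at least 2-fold lower after treatment, as had 96.4% of 18598 genes. The kept share was then 38.5% to 48.3% for MPO and the 5 cluster genes, 20.6% for CTSG, 15.0% for LYZ and 10.9% for LTF, beside a median of 6.77% over all genes in that window. The shares at PRTN3, AZU1 and ELANE were thus lower than in the near windows but still above the upper quartile of 13.9% over all genes. The wide windows of the 5 cluster genes largely cover the same stretch, so their values are not independent.

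**Figure D4:**
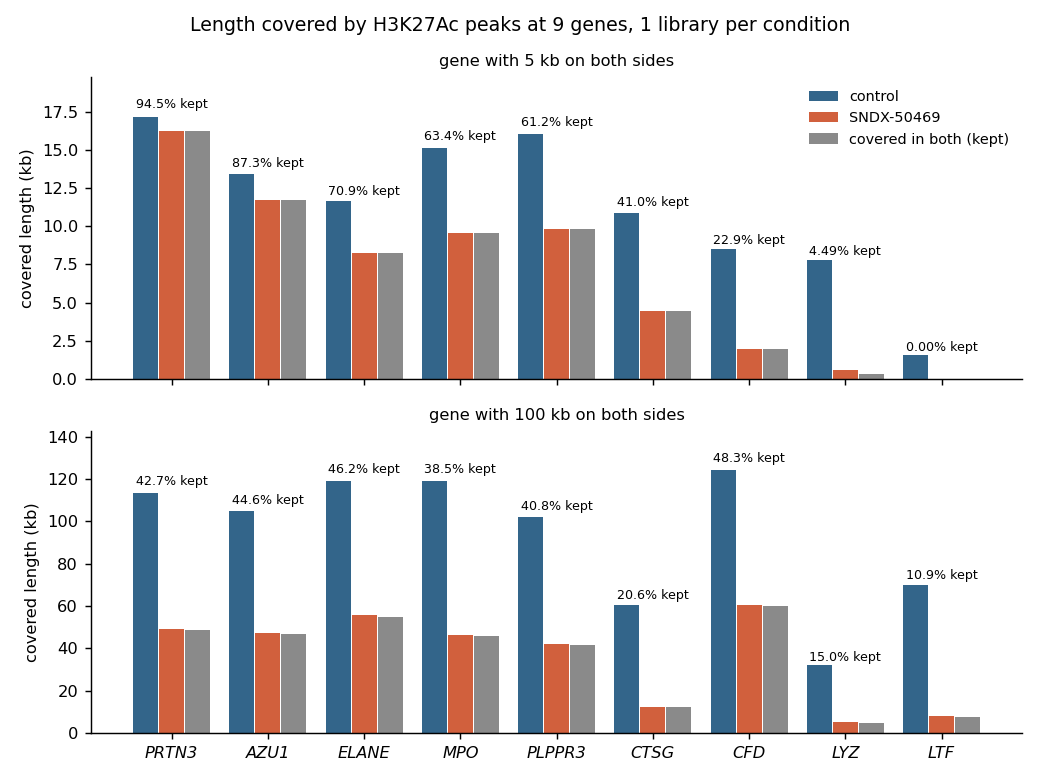
Covered length in kb (vertical axes) of each gene in control cells, in SNDX-50469-treated cells and in both, with 5 kb (upper panel) and 100 kb (lower panel) on both sides of the gene. Numbers are kept shares, from 94.5% at PRTN3 to 0% at LTF with 5 kb and from 48.3% at CFD to 10.9% at LTF with 100 kb.

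Counted once each, 46 control peaks and 21 SNDX-50469 peaks lay in the 5 kb windows of the 9 genes, and 14 of the control peaks shared a position with a SNDX-50469 peak. Of all control peaks, 8.24% shared a position with a SNDX-50469 peak. Of the 21 SNDX-50469 peaks, 20 overlapped a control peak, and the share over all SNDX-50469 peaks was not computed. Among the 100 strongest peaks of each list, 3 control peaks (at PLPPR3, at PRTN3 with ELANE, and at AZU1) and 4 SNDX-50469 peaks (at PLPPR3, AZU1, PRTN3 and MPO) were in these windows. Counted by genes, such a peak lay in the windows of PLPPR3, AZU1, PRTN3 and ELANE in control. After treatment these were the windows of PLPPR3, AZU1, PRTN3 and MPO. The share of all genes with a peak among the 100 strongest was 0.691% in control and 0.557% after treatment.

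The strongest control peaks of the whole list, these included, were also kept to a large extent. The 100 strongest had a median kept share of 80.9% (quartiles 65.9 and 92.0) and the 500 strongest 65.7% (47.4 and 80.8). Against these values the peaks at PLPPR3 (98.1%) and PRTN3 with ELANE (94.2%) stood above the upper quartile of the 100 strongest, at places 9 and 22 by kept share, and that at AZU1 (74.5%) below the median, at place 61. The MPO peak at rank 279, with 74.8%, lay between the median and the upper quartile of the 500 strongest. Read this way, the cluster and MPO were within the range of other strong peaks.

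**Figure D5:**
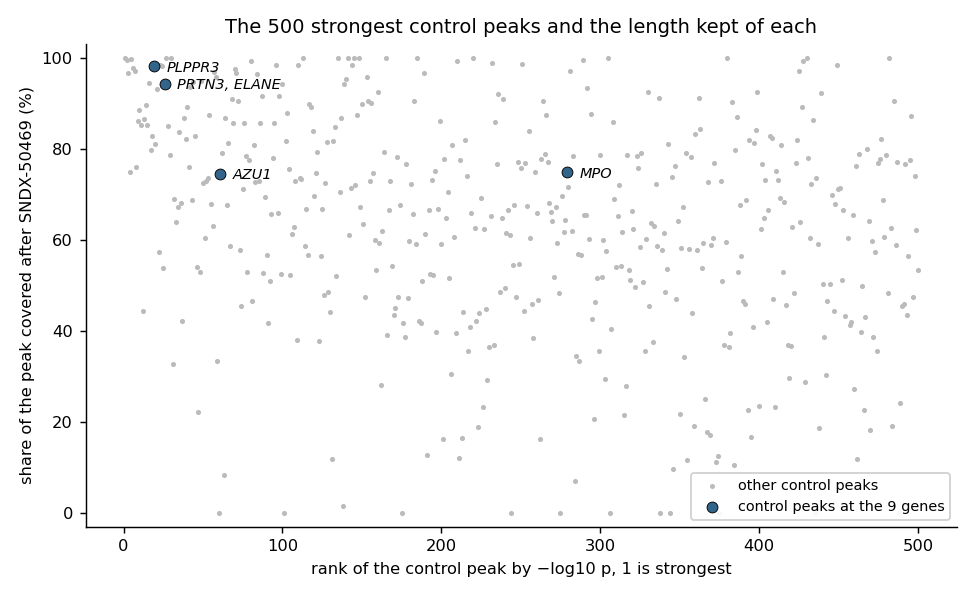
Share of each of the 500 strongest control peaks that was covered after SNDX-50469 treatment in percent (vertical axis) against the rank of the peak by −log10 p (horizontal axis). Each point is 1 peak, and the marked peaks at PLPPR3 (98.1%), PRTN3 with ELANE (94.2%), AZU1 (74.5%) and MPO (74.8%) lie within the range of the others.

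The other genes of granule biology are described as lists, by counts and medians. Of 15 azurophil granule genes, 11 had a control peak, 6 of these had a covered length at least 2-fold lower, against 93.7% of all genes, and the median kept share was 49.4%. The list holds 6 of the 9 genes above, and its remaining genes were mixed. PRSS57, a serine protease gene on chromosome 19 that lies outside the cluster, went from 15000 to 8343 bp with 54.3% kept, and its best peaks ranked 76 in control and 67 after treatment. RNASE2, encoding the eosinophil-derived neurotoxin, went from 9623 to 4783 bp with 49.4% kept, the median of the list. RNASE3 went from 9567 to 1407 bp (14.7% kept), CD63 from 13082 to 1300 bp (9.94%) and BPI from 9020 to 88 bp (0.976%). These 4 were added beyond the naming rule to complete the list. The defensin genes DEFA1, DEFA1B, DEFA3 and DEFA4 had no peak in either list.

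Of 17 genes of the specific and gelatinase granules, 15 had a control peak and 14 of these had a covered length at least 2-fold lower, close to the 93.7% of all genes. The median kept share was 0%. CYBB, the gene of the large subunit of the NADPH oxidase, went from 23732 to 1618 bp. MMP25, a membrane metalloprotease gene, went from 17911 to 229 bp, CHI3L1 from 17467 to 357 bp and MMP9, the gelatinase gene, from 11848 to 776 bp. CAMP, encoding the precursor of the peptide LL-37, lost all of 8514 bp and HP all of 4238 bp. ARG1 was the 1 gene with more coverage after treatment, 209 bp against 76 bp, both too short to read as a change. The medians of 0% here and 49.4% for the azurophil list stand beside 2.36% over all genes, and the difference between the lists was not tested. With 100 kb on both sides the medians were 3.99% here, 8.24% for the azurophil list and 6.77% over all genes. A gene counts there when it has a control peak in the wider window, so the sets can hold genes without one at 5 kb. The azurophil median is thus not over the same 11 genes. Of these, MPO, ELANE, PRTN3, AZU1, CTSG and LYZ kept 15.0% to 46.2% with 100 kb. The lists also differed before treatment, with a median control covered length of 1600 bp here and 9623 bp in the azurophil list.

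Genes of other granulated cells followed the rate of all genes. At least 2-fold lower lengths were found at all 6 eosinophil, basophil and mast cell genes with a control peak and at all 7 such genes of lymphocyte granules, with medians of 0% in both, where 93.7% of all genes were lower by as much. The first of these lists does not hold RNASE2, the gene of the eosinophil-derived neurotoxin, which was counted in the azurophil list and kept 49.4%. NKG7, which encodes a protein of cytotoxic granules, kept most in the lymphocyte list, with 10647 bp in control, 3113 bp after treatment and a kept share of 29.2%, while GNLY, the granulysin gene, lost all of 11168 bp.

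Among the genes that process and pack granule proteins, all 7 had a control peak and a length at least 2-fold lower, as had 93.7% of all genes, with a median kept share of 15.9%. SRGN, encoding serglycin, the proteoglycan that holds granule proteases, went from 19467 to 5167 bp. AP3B1, an adaptor subunit gene mutated in a syndrome with neutropenia, went from 59437 to 4484 bp. VPS13B, on chromosome 8, had 132721 bp in control and 65289 bp after treatment, but 44159 bp of the latter had not been covered in control and the kept share was 15.9%. Of 8 genes of protease inhibitors, 6 had a control peak, all 6 had a length at least 2-fold lower, again near the 93.7% of all genes, and the median kept share was 1.01%. SERPINB1, whose product inhibits elastase, proteinase 3 and cathepsin G, went from 9332 to 1867 bp, and SLPI, encoding another elastase inhibitor, lost all of 8590 bp.

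Of the transcription factors that act on granule genes, all 10 had a control peak and a SNDX-50469 peak. A length at least 2-fold lower was found at 8 of the 10, against 93.7% of all genes, and the median kept share was 37.2%, beside 2.36% over all genes. The exceptions were CEBPA, with 12601 bp in control, 8584 bp after treatment and 68.1% kept, and CEBPD, on chromosome 8, with 8649 bp, 5650 bp and 59.6%. MYB went from 45989 to 18944 bp with 41.2% kept, SPI1, which encodes PU.1, from 28244 to 11032 bp with 39.1%, ETV6 from 230716 to 69067 bp with 29.7%, and RUNX1 from 212304 to 26521 bp with 12.4%. Covered length is a length under called peaks and not a level of the factor or of its mRNA.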

How the data were processed

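H3K27Ac ChIPmentation libraries of MOLM13 cells, 1 control and 1 treated with SNDX-50469, were used as the authors deposited them, as 1 list of broad peaks per library, called without pooling. The authors' lists give each peak a fold ratio over background, a −log10 p, a −log10 q and a score, which is 10 times the −log10 q and was not used on its own. The submitters' processing notes name Trim Galore 0.6.5, Bowtie2 2.3.4.2, Picard 2.9.0, MACS2 2.1.2 and GRCh38, with no role or order. The supplementary methods name TopHat2 and hg38, and cutoffs and the use of input are not given in the sources used here.

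Covered, shared and kept lengths were computed in Python 3.11.15 (numpy 2.4.6, pandas 2.3.3), with genes and promoters of GRCh38.p14, the build of hg38, and the code returned the known lengths for 200 of 200 simulated windows. Strand came from the RefSeq promoter table or, by symbol, from GENCODE. The 9 genes, the lists and the tests were chosen with earlier results of these data known. Named beside the 9 genes were, in each list, up to 4 genes with the longest control coverage that had a SNDX-50469 peak and up to 2 that had none, the neighbours within 100 kb, and the exceptions stated in the text. A few genes that this rule would name are not reported here. No test was possible with 1 library per condition. The depth is unknown, since a peak list holds no read total.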

Additional observations from a re-analysis of the deposited data

How the results depend on the processing

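No paired analysis was possible because the 2 arms hold a single library each, and no library could be left out. Over the other settings the kept share ranged from 42.7% to 100% at PRTN3, 44.6% to 100% at AZU1, 40% to 89.7% at ELANE, 16.7% to 89.5% at MPO, 30% to 97.1% at PLPPR3, 0% to 84.3% at CTSG, 0% to 68.2% at CFD, 0% to 25% at LYZ and 0% to 10.9% at LTF, with 1 to 10 control peaks a gene. The kept share of the cluster was 44.5% with 100 kb on both sides, 89.8% with the control list trimmed from its weakest peaks to the covered length of the SNDX-50469 list, 42.1% as a share of peaks with 1 bp shared and 26.3% as a share of peaks with at least 50% of their length shared. The median of the 9 genes was 88.5% after that trimming, among the 6 genes still with a control peak, where the kept share of the whole control list rose from 9.71% to 38.8%, and 20.0% as a share of peaks with at least 50% shared. The azurophil median was 8.24% with 100 kb, 0% at a −log10 q of at least 5, 87.3% after the trimming and 16.7% by peaks with at least 50% shared. Each is over the genes of the list with a control peak in that setting, so the genes can differ between settings. The number of genes with a covered length at least 2-fold lower went from 4 to 9 with 100 kb and to 0 after the trimming. With 100 kb, 96.4% of all genes were lower by as much. After the trimming, CTSG, LYZ and LTF had no control peak and could not be counted. The share over all genes was not computed for the trimming or for the limits on −log10 p and −log10 q that follow. With the common limit on −log10 p the cluster kept 75.5% and 3 genes had a length at least 2-fold lower. At a −log10 q of at least 5, 5 genes had a SNDX-50469 peak, and CTSG, LYZ and CFD kept 0%. CTSG and LYZ gave no value after the trimming, and LTF none there or at a −log10 q of at least 3 or 5. The limit of 3, the control list trimmed to the same number of peaks, and the backgrounds of at least 10 kb and without chromosome 8 were chosen after seeing the data.  Apart from the choices above, the cause of these movements was not tested.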

Other observations

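ARID3A, which encodes a DNA-binding protein of blood cells, lies after the chromosome 19 cluster and went from 40488 to 19198 bp with 45.8% kept, and its strongest peaks ranked 178 in control and 193 after treatment. Of 15 neighbours of the cluster, 14 had a covered length at least 2-fold lower, with a median kept share of 23.9%, and of the 7 neighbours of MPO all 7 had, with a median of 2.05%, where 93.7% of all genes were lower by as much. These lists contain genes beyond the 100 kb windows.

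The 6 myeloid and monocytic markers had a median kept share of 3.42%. CD86, a costimulatory receptor gene, went from 60971 to 768 bp, CSF1R, the receptor of macrophage colony-stimulating factor, from 52599 to 3345 bp, CD33 from 20288 to 798 bp and CD68, a lysosomal protein gene of macrophages, from 11658 to 3212 bp. ITGAM, the gene of CD11b, had 32322 bp in control and no SNDX-50469 peak. The paper reports ITGAM and CD86 mRNA as induced by SNDX-50469 in MOLM13 cells, so these lengths are not to be read as mRNA levels.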
